A study of Mus musculus with 27 samples.

Results

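The transcripts described are those of the acetyltransferase Kat8, also called MOF, and of its 3 partners in the MSL complex, Msl1, Msl2 and Msl3. They were chosen by gene symbol, and each had 1 probeset, so that 4 of the 35556 probesets on the arrays are described. All 4 passed the filter on low values (a mean log2 value of at least 6 over the 27 arrays). The arrays measured RNA of undifferentiated mouse embryonic stem (ES) cells after transfection of small interfering RNAs (siRNAs), which direct the breakdown of a matching messenger RNA. Values are log2 expression values made by the authors with RMA, so that a difference of 1 is 1 doubling. The question here is how deep each knockdown went and how each subunit responded to loss of the others.

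Cells treated with specific siRNA were, in the female line PGK12.1, 3 MOF arrays, 3 MSL1 arrays, 3 arrays labelled NSL1 and 2 arrays of both MOF and MSL1 siRNA (double-target). The male lines WD44 and E14 had 2 MOF arrays each. Controls received negative control siRNA, on 8 arrays in PGK12.1 (3 beside MOF, 5 beside the others) and on 2 arrays each in WD44 and E14. All cells received 100 pmol of siRNA for 48 h, with 50 pmol of Msl1 siRNA besides in double-target cells. Both the MOF and the control cells of PGK12.1 experiments 1 and 2 were then re-transfected with 400 pmol and kept for another 24 h. PGK12.1, derived by mating a 129 mother with a (129 X PGK)F1 sire, was used at passages 14 to 18, WD44 came from BL6 blastocysts, and the E14 hybrid line came from a BL6 mother and a Cast. father. Each line is a single line, so that sex, strain and line cannot be told apart. All cells were grown on mouse embryonic fibroblast (MEF) feeders that were depleted on gelatin before RNAi. The label NSL1 could mean the NSL complex subunit Kansl1 or the kinetochore gene Nsl1, and the name is used for the label only.

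Kat8 is the catalytic subunit of both the MSL and the NSL complex and acetylates a lysine in the tail of histone H4. In the MSL complex, Msl1 is the scaffold that binds the other subunits, Msl2 is a RING-finger ubiquitin ligase, and Msl3 carries a chromodomain that binds methylated histones. In the NSL complex Kat8 works with Kansl1 and other partners instead. In Drosophila the MSL complex raises transcription from the male X chromosome, and in ES cells Kat8 is known to be needed for self-renewal. In the mouse annotation Kat8 lies on chromosome 7, Msl1 on chromosome 11, Msl2 on chromosome 9 and Msl3 on the X chromosome.

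The arrays carried the marks of undifferentiated ES cells. Markers were set against each array's median over the tested probesets (a mean of at least 6 and a gene symbol), which lay between 7.62 and 9.49. All 10 marker genes of that state, Pou5f1, Sox2 and Nanog among them, lay above this median on every array. Of 10 MEF feeder markers, 8 lay below this median on every array, while Acta2 lay above it on 6 arrays and Col1a1 on 1. All 5 primitive endoderm markers lay below it on every array. This median is higher than that of all probesets, so a level below it does not show absence. Of 5 trophectoderm markers Elf5 did so, whereas Krt8 lay above the median on 24 of the 27 arrays, Krt18 on 10, Cdx2 on 8 and Krt7 on 5. The median of all probesets lay between 6.225 and 7.96 depending on the array, with steps from one set of arrays to the next, so levels are compared within an experiment. A change is the fitted difference between siRNA arrays and the control array of the same experiment. It was called at an adjusted p under 0.05 over 16283 tested probesets, by limma with the experiment as a block. The labels number separate RNAi experiments but name no separate cultures, so p-values measure the spread between these arrays, which may be technical. Counts of experiments of the same sign, and of groups that did not overlap, are descriptions. The share of all probesets with the same pattern was not counted. With 2 arrays in each group, an uncalled change can also show no overlap, as for Msl3 in WD44 (0.07).

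MOF siRNA lowered Kat8 in all 3 lines, to 42.8% of its control level in PGK12.1 by the fit, 55.9% in WD44 and 62.6% in E14. In PGK12.1 Kat8 stood at 7.05, 7.23 and 7.99 on the MOF arrays of experiments 1, 2 and 3, against 8.42, 8.47 and 9.05 on their control arrays. The groups did not overlap, and the arrays of experiment 3, which had a single round of RNAi, were the highest of each group. The fitted log2 change was -1.22 (SE 0.06, limma adjusted p = 5.75e-08), the largest fall of the 16283 probesets. By comparison, 13.9% of all tested probesets were called lower in this comparison.

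In WD44 Kat8 stood at 9.67 and 9.80 on MOF arrays, against 10.62 and 10.53 on control arrays. In E14 it stood at 8.56 and 8.80 on MOF arrays, against 9.32 and 9.39 on control arrays. In neither line did the groups overlap. The change was -0.84 in WD44 (SE 0.08, limma adjusted p = 8.81e-05, against 7.98% of probesets called lower) and -0.68 in E14 (SE 0.08, adjusted p = 0.00044, against 4.73%). From the lowest change upwards, Kat8 ranked 10 of 16283 in WD44 and 7 in E14. With the spread taken from the arrays of 1 line alone, where 2 experiments remain, neither fall was called (adjusted p = 0.219 in WD44 and 0.231 in E14).

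Double-target cells also lost Kat8, which stood at 8.62 and 8.55 on the siRNA arrays of experiments D and E, against 9.45 and 9.47 on their control arrays. Here too the siRNA arrays lay below both control arrays. The change was -0.87 (SE 0.07, limma adjusted p = 3.24e-05), the largest fall of all tested probesets, of which 3.19% were called lower.

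Per experiment, the remaining level of Kat8 was 38.7%, 42.3% and 48.0% of control in PGK12.1, 51.8% and 60.3% in WD44, 59.0% and 66.4% in E14, and 56.3% and 52.8% in double-target cells. Ordered by depth, PGK12.1 experiments with 2 rounds came first, then PGK12.1 with a single round, while WD44 and the double-target cells overlapped, as did WD44 and E14. The fall was shallower in E14 than in PGK12.1 by 0.55 (95% CI 0.34 to 0.76, limma adjusted p = 0.0132). It was not called without the experiment block (0.55, adjusted p = 0.12) or without either E14 experiment (0.63 without experiment 1, adjusted p = 0.0918, and 0.46 without experiment 2, adjusted p = 0.0974), where the remaining experiment of E14 is assumed to vary like the other groups. Against the single-round experiment of PGK12.1, which is 1 MOF array and 1 control array, the value was 0.39 and is given without a test. Against PGK12.1, the fall in WD44 was shallower by 0.38 (95% CI 0.18 to 0.59, adjusted p = 0.055), and that in double-target cells by 0.36 (95% CI 0.15 to 0.56, adjusted p = 0.145), neither called. Against the single-round experiment of PGK12.1 the values were 0.22 for WD44 and 0.19 for double-target cells, given without a test. WD44 and E14 differed by -0.17 (95% CI -0.39 to 0.06, adjusted p = 0.465). In these differences, 2.5% of all probesets were called for E14 minus PGK12.1, 2.21% for WD44 minus PGK12.1, 1.39% for WD44 minus E14 and 0.276% for double-target minus MOF.

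**Figure D1:**
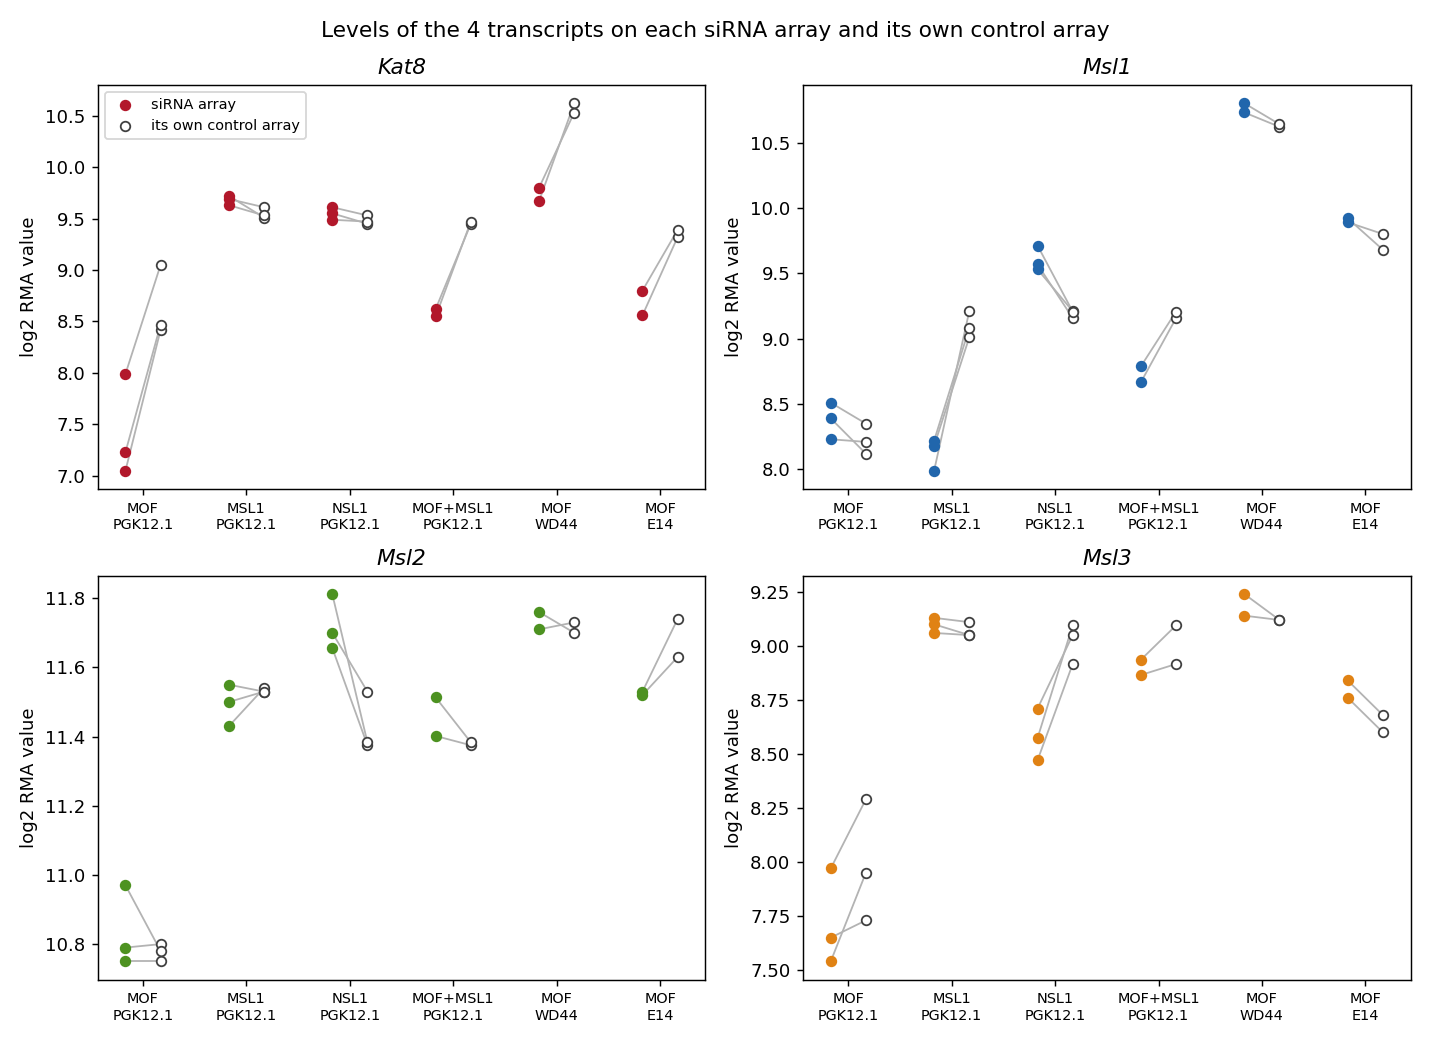
Log2 RMA values of the 4 transcripts, 1 panel each with its own vertical range. Filled points are siRNA arrays and open points their own control arrays, joined by lines within an experiment. Kat8 lay below its controls on each of the 9 arrays with MOF siRNA, and Msl1 on each of the 5 arrays with MSL1 siRNA.

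The annotated region before the Kat8 start is shown because Kat8 was a target in 4 of the 6 comparisons and was called in those alone. The 250 bases before the annotated start (RefSeq, GRCm38.p6, chr7:127912267-127912516, plus strand) are given 5′ to 3′, with motif matches in capitals.
Kat8: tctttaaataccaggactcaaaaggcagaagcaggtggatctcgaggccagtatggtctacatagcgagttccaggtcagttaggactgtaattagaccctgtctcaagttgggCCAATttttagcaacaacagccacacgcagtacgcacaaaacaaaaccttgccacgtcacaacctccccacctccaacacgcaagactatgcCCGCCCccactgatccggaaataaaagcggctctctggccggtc
The search covered 7 motifs on both strands, namely the TATA box (TATAAA), the CCAAT box (CCAAT), the GC box (GGGCGG), the ETS motif (CCGGAAG), the NRF1 core motif (GCGCATG), the YY1 motif (CCATNTT) and a GAGA repeat (GAGAGAGA). The Kat8 window held 1 CCAAT match and 1 GC box match (as CCGCCC on the printed strand), and no match to the other 5. Over the 32851 windows of all genes, CCAAT occurred in 33.8% and the GC box in 32.7%. These are matches of letters and not known sites.

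After MSL1 siRNA and in arrays labelled NSL1, Kat8 did not pass the test. It stood at 9.72, 9.69 and 9.63 on the MSL1 arrays of experiments A, B and C, against 9.51, 9.61 and 9.53 on their controls. Each MSL1 array was above its own control and above all 3 controls, but the change of 0.13 (95% CI -0.0019 to 0.25) was not called (limma adjusted p = 0.531). In arrays labelled NSL1 it stood at 9.61, 9.55 and 9.49 in experiments C, D and E, against 9.53, 9.45 and 9.47 on their controls, and the groups overlapped. The change was 0.07 (95% CI -0.05 to 0.20, adjusted p = 0.37).

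Msl1, the scaffold, fell after its own siRNA and rose in arrays labelled NSL1. On MSL1 arrays it stood at 8.18, 8.22 and 7.99 in experiments A, B and C, against 9.01, 9.08 and 9.21 on controls. The groups did not overlap, and 56.3%, 55.1% and 42.9% of the control level remained. The change was -0.97 (SE 0.07, limma adjusted p = 4.59e-06), the largest fall of all probesets, in a comparison in which 0.086% of probesets were called lower. With the arrays of these 3 experiments alone limma did not call it (adjusted p = 0.272).

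Double-target cells, which received 50 pmol of Msl1 siRNA beside the MOF siRNA, also lost Msl1. It stood at 8.67 and 8.79 on the siRNA arrays of experiments D and E, against 9.16 and 9.21 on controls, and the groups did not overlap. The change was -0.46 (SE 0.08, limma adjusted p = 0.00506), which left 71.2% and 74.8%, and it ranked 62 of 16283 from the lowest. The difference from the single MSL1 knockdown was 0.51 (95% CI 0.30 to 0.72, adjusted p = 0.0352, where 0.442% of all probesets were called), between experiments that differed in dose. Leaving out 1 array moved this difference between 0.37 and 0.57, and of the 10 arrays it rests on the call held without the control array of C alone. Without either double-target array the fall itself was not called (adjusted p = 0.0775 without D and 0.0662 without E).

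In arrays labelled NSL1, Msl1 rose by 0.45 (SE 0.07, limma adjusted p = 6.43e-05), against 18.4% of all probesets called higher and 39.8% called in either direction. It stood at 9.53, 9.57 and 9.71 in experiments C, D and E, against 9.21, 9.16 and 9.21 on control arrays. The siRNA arrays lay above all 3 controls, and the level was 125% to 142% of control.

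MOF siRNA moved Msl1 less. In PGK12.1 Msl1 stood at 8.39, 8.23 and 8.51 on MOF arrays, against 8.12, 8.21 and 8.35 on control arrays, and the groups overlapped. In WD44 it stood at 10.73 and 10.80 on MOF arrays, against 10.62 and 10.64 on controls. In E14 it stood at 9.89 and 9.92 on MOF arrays, against 9.80 and 9.68 on controls. The change was 0.15 in PGK12.1, 0.14 in the WD44 line and 0.17 in the E14 line, and none was called (limma adjusted p = 0.131, 0.298 and 0.253). All 7 MOF experiments lay above 0, between 0.02 and 0.27, and the share of all probesets that did so was not counted. The mean over the 3 lines, a comparison added after these values were seen, was 0.15 (SE 0.05, adjusted p = 0.0203), where 14.5% of all probesets were called higher. It was not called without WD44 experiment 1 (adjusted p = 0.0548), WD44 experiment 2 (adjusted p = 0.0694) or E14 experiment 2 (0.106). The rise in arrays labelled NSL1 exceeded that after MOF siRNA in PGK12.1 by 0.30 (95% CI 0.10 to 0.51, adjusted p = 0.0433, where 16% of all probesets were called), though not without the experiment block (0.32, adjusted p = 0.0694). This difference lay between 0.24 and 0.37 with 1 array left out and was lost in most such fits, the lowest without experiment 2 of MOF (adjusted p = 0.164).

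**Figure D2:**
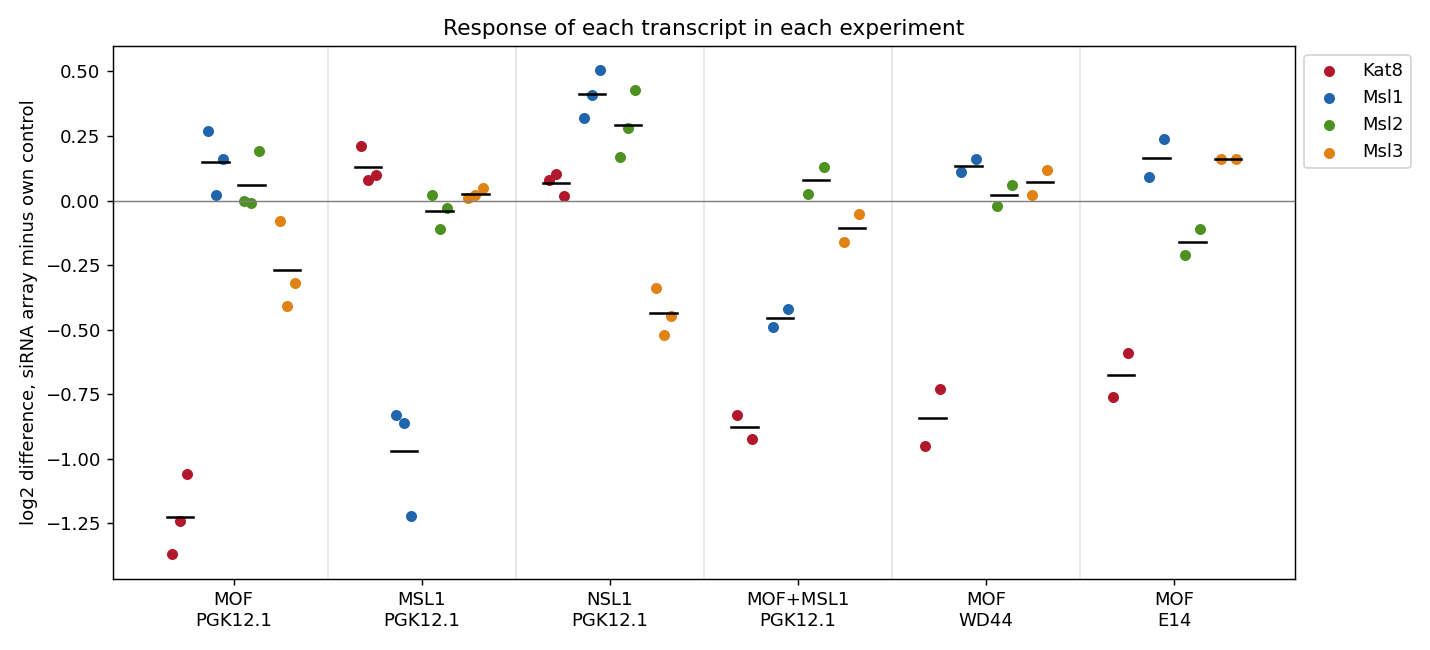
Log2 difference of each siRNA array from its own control array, by comparison. Points are experiments and black bars their means. Msl1 lay between 0.02 and 0.27 in the 7 MOF experiments and between 0.32 and 0.50 in the 3 experiments labelled NSL1, while Msl3 lay below 0 after MOF siRNA in PGK12.1 and above 0 in WD44 and E14.

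Msl2, the ubiquitin ligase subunit, rose in arrays labelled NSL1 and was called in none of the other 5 comparisons. It stood at 11.70, 11.66 and 11.81 in experiments C, D and E, against 11.53, 11.37 and 11.38 on control arrays. All 3 siRNA arrays lay above all 3 controls, at 113% to 135% of control. The change was 0.28 (SE 0.06, limma adjusted p = 0.000786). It exceeded the response to MSL1 siRNA by 0.30 (95% CI 0.15 to 0.45, adjusted p = 0.00424, where 32.3% of all probesets were called). It exceeded that of double-target cells by 0.24 (95% CI 0.10 to 0.38, adjusted p = 0.0157, where 26.5% were called). The difference from double-target cells was not called without the siRNA array of D or E in either group (adjusted p between 0.0734 and 0.149). The difference from MOF siRNA in PGK12.1 was 0.22 (95% CI 0.05 to 0.39, adjusted p = 0.0707).

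In the other comparisons Msl2 was not called. After MSL1 siRNA the experiments lay between -0.11 and 0.02 (change -0.02, 95% CI -0.14 to 0.10), and in double-target cells at 0.03 and 0.13 (change 0.04, 95% CI -0.10 to 0.19). After MOF siRNA the experiments lay between -0.01 and 0.19 in PGK12.1 (change 0.06, 95% CI -0.06 to 0.18) and at -0.02 and 0.06 in WD44 (change 0.02, 95% CI -0.13 to 0.17). In E14 Msl2 stood at 11.53 and 11.52 on MOF arrays, against 11.74 and 11.63 on controls. Both MOF arrays lay below both controls there, with a change of -0.16 (95% CI -0.31 to -0.01, limma adjusted p = 0.183) that was not called.

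Each member had 2 windows in the table, for 2 annotated starts. For Kat8 and Msl2 the first lay wholly before the annotated gene, while their second window and both windows of Msl1 and Msl3 lay inside it and are not shown. The Msl2 window is shown beside its rise in arrays labelled NSL1. It covers 250 bases (RefSeq, GRCm38.p6, chr9:101073804-101074053, plus strand, motif matches in capitals).
Msl2: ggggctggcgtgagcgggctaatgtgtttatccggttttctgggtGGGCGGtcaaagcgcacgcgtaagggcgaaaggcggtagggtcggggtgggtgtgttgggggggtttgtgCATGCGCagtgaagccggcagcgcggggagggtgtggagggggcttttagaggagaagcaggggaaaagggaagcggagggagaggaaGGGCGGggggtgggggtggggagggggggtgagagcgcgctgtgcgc
This window held 2 GC box matches and 1 match to the NRF1 core (as CATGCGC on the printed strand), which occurred in 3.24% of all windows. It held none of the other 5 motifs. Its share of G and C was 67.2%, with 19 CpG pairs, against 51.2% and 10 in the Kat8 window.

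Msl3, the X-linked chromodomain subunit, fell in arrays labelled NSL1 and after MOF siRNA in PGK12.1, and was not called in either male line. In arrays labelled NSL1 it stood at 8.71, 8.57 and 8.47 in experiments C, D and E, against 9.05, 9.10 and 8.92 on control arrays. The groups did not overlap, and 69.6% to 79.0% of the control level remained. The change was -0.43 (SE 0.06, limma adjusted p = 2.14e-05), against 21.4% of all probesets called lower.

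After MOF siRNA in PGK12.1 Msl3 stood at 7.65, 7.54 and 7.97 in experiments 1, 2 and 3, against 7.73, 7.95 and 8.29 on control arrays. Each MOF array was below its own control, by 0.08 to 0.41, though the groups overlapped because experiment 3 was higher on both arrays. The change was -0.27 (SE 0.06, limma adjusted p = 0.00385). It was not called without experiment 2 (-0.20, adjusted p = 0.0582) or with the arrays of these experiments alone (adjusted p = 0.0822).

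In the male lines the change was above 0 and not called. In WD44 Msl3 stood at 9.14 and 9.24 on MOF arrays, against 9.12 on both control arrays, a change of 0.07 (95% CI -0.08 to 0.22, limma adjusted p = 0.546). In E14 it stood at 8.76 and 8.84 on MOF arrays, against 8.60 and 8.68 on control arrays, a change of 0.16 (95% CI 0.01 to 0.31, adjusted p = 0.187). All 4 of these MOF arrays lay above their own controls, whereas the 3 of PGK12.1 lay below theirs. The response in E14 was higher than in PGK12.1 by 0.43 (95% CI 0.23 to 0.63, adjusted p = 0.029). Against the single-round experiment of PGK12.1, 1 pair of arrays, the value was 0.48 and is given without a test. The difference was not called without the experiment block (adjusted p = 0.211), without experiment 2 or 3 of PGK12.1 (adjusted p = 0.0781 and 0.0704) or without experiment 1 or 2 of E14 (adjusted p = 0.214 and 0.112). The difference between WD44 and PGK12.1 was 0.34 (95% CI 0.14 to 0.54, adjusted p = 0.0691), which was not called.

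MSL1 siRNA left Msl3 at 9.06, 9.13 and 9.10, against 9.05, 9.11 and 9.05 on control arrays, a change of 0.01 (95% CI -0.11 to 0.13). Double-target cells had 8.94 and 8.87 on siRNA arrays, against 9.10 and 8.92 on control arrays, with overlapping groups and a change of -0.08 (95% CI -0.22 to 0.06, limma adjusted p = 0.558). The fall in arrays labelled NSL1 was larger than the change in double-target cells by 0.35 (difference -0.35, 95% CI -0.50 to -0.21, adjusted p = 0.00152). It was not called as different from that after MOF siRNA in PGK12.1 (difference -0.16, 95% CI -0.34 to 0.01, adjusted p = 0.182).

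**Figure D3:**
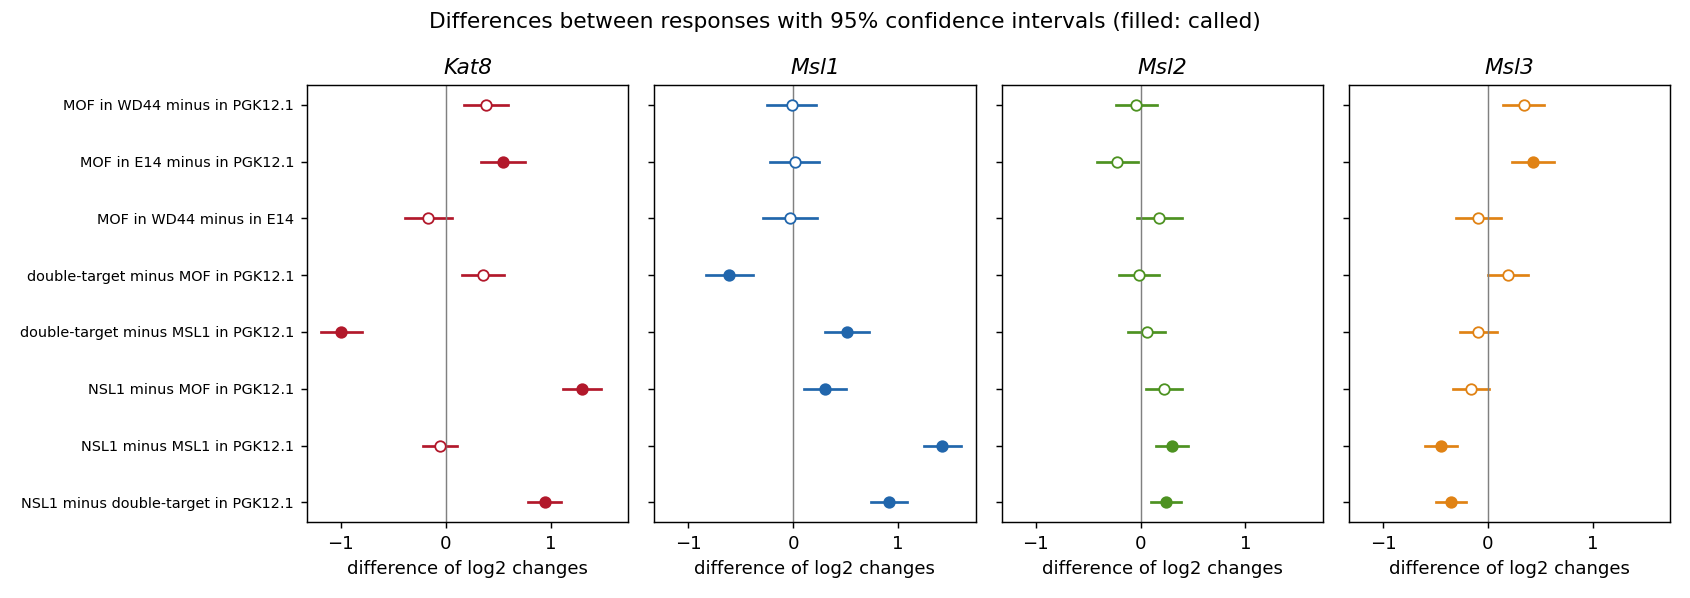
Differences between the responses to 2 knockdowns, or of 2 lines to the same knockdown, for each transcript. Points are fitted differences of log2 changes, lines are 95% confidence intervals, and filled points were called at an adjusted p under 0.05. For Msl3, E14 minus PGK12.1 (0.43) was called and WD44 minus PGK12.1 (0.34) was not. For Kat8, NSL1 minus MSL1 (-0.05) spanned 0.

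Set side by side, the arrays labelled NSL1 changed 3 of the 4 transcripts (Msl1 and Msl2 higher, Msl3 lower), in a comparison in which 39.8% of all probesets were called. MOF siRNA in PGK12.1 changed its target Kat8 and, of the others, Msl3 alone, where 23.4% of all probesets were called. In WD44 and E14 it changed its target Kat8 alone of the 4 (12.4% and 8.33% of all probesets). MSL1 siRNA changed Msl1 alone of the 4, where 0.184% of all probesets were called. Double-target siRNA changed its 2 targets, where 6.44% were. The arrays labelled NSL1 share the control array of experiment C with the MSL1 arrays and those of D and E with the double-target arrays, so that these comparisons are not independent.

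**Figure D4:**
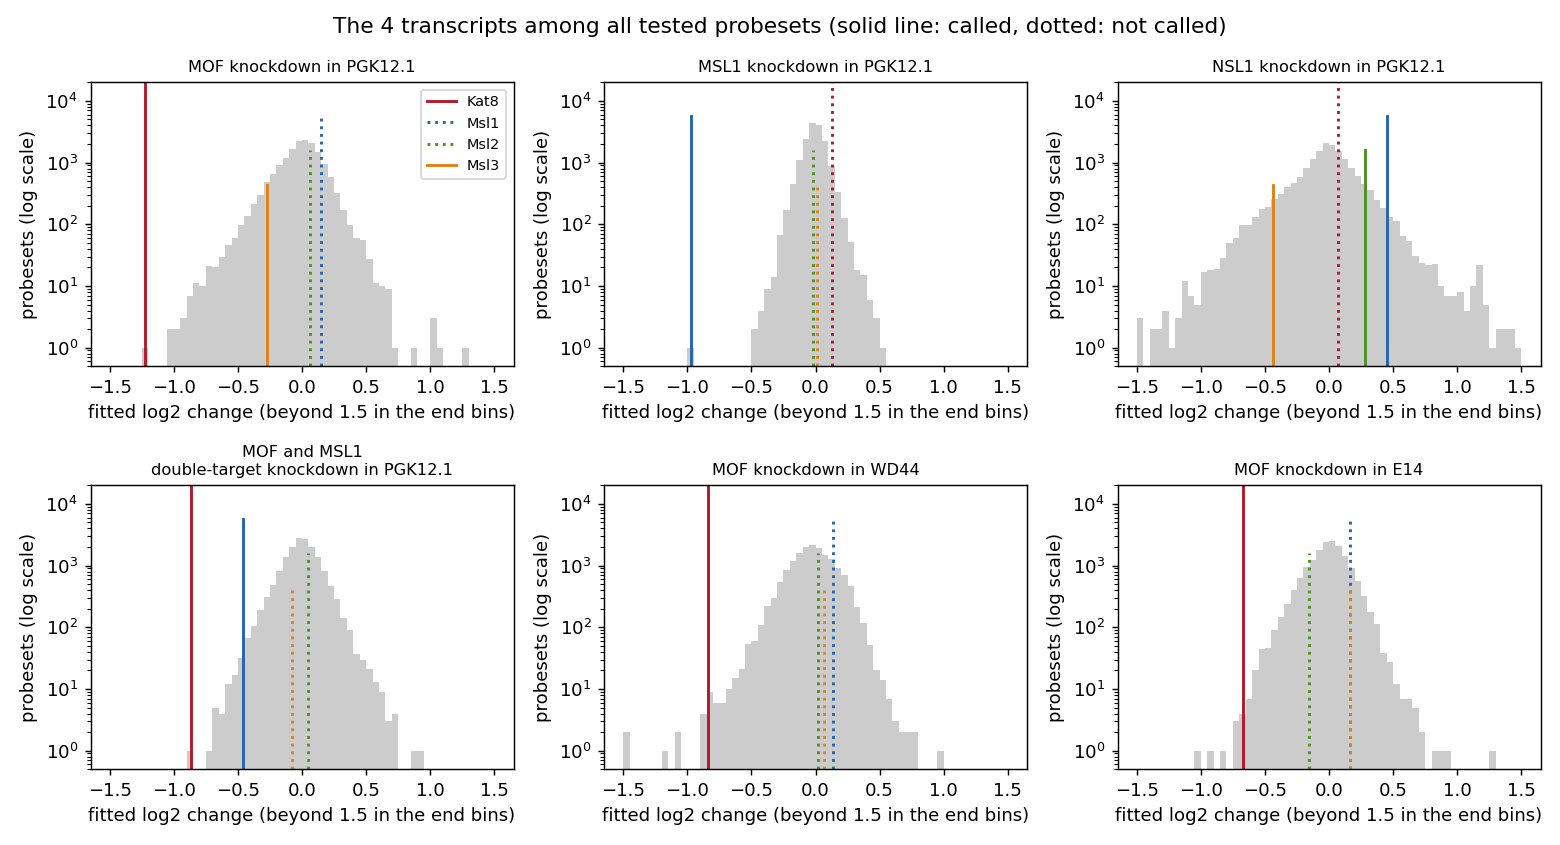
Fitted log2 changes of all 16283 tested probesets (grey, on a log count axis), with the 4 transcripts as lines whose heights carry no value, solid where called and dotted where not. Kat8 lay at the lower end of the distribution in the 4 comparisons with MOF siRNA and Msl1 at that of the MSL1 comparison. Msl1, Msl2 and Msl3 lay inside the broad distribution of the arrays labelled NSL1.

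Of 9 NSL complex genes, partners of Kat8 outside the MSL complex, 4 rose after MOF siRNA in PGK12.1, where 9.49% of all probesets were called higher, with a list median of 0.113 against 0 for all probesets. They were Kansl2 (0.28, limma adjusted p = 0.00113), Kansl1 (0.22, adjusted p = 0.00449), Kansl3 (0.23) and Ogt, the O-GlcNAc transferase (0.21). In arrays labelled NSL1, 3 rose, Phf20 (0.23) and Ogt (0.22) among them, while Kansl1 (-0.24, adjusted p = 0.000874) and Mcrs1 (-0.17) fell, so that 5 of 9 were called where 39.8% of all probesets were. A second Kansl1 probeset (10392010) was higher in the same arrays by 0.50 (adjusted p = 0.00648), so that the 2 probesets of Kansl1 disagree, and Nsl1 stood at 0.16 (adjusted p = 0.0502). The second probeset was also higher after MOF siRNA in PGK12.1 (0.50, adjusted p = 0.0148) and in WD44 (0.75, adjusted p = 0.0121). On the probeset with the higher mean, none of the 9 genes passed the test after MSL1 siRNA, in double-target cells, in WD44 or in E14. In E14 the 9 lay between -0.24 and 0.18.

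Relatives of the members were also counted, against 23.4% of all probesets called after MOF siRNA in PGK12.1, 39.8% in arrays labelled NSL1 and 12.4% in WD44. Of the 4 other acetyltransferases of the MYST family, Kat6a rose after MOF siRNA in PGK12.1 (0.19, limma adjusted p = 0.0398). In arrays labelled NSL1, Kat6a (0.32) and Kat6b (0.14) rose and Kat5, the catalytic subunit of the Tip60 complex, fell (-0.27, adjusted p = 0.000502). None of the 4 was called in the other 4 comparisons. Of 3 relatives of Msl3 with an MRG domain, Msl3l2 fell in arrays labelled NSL1 (-0.24, adjusted p = 0.0149), and none was called elsewhere. In arrays labelled NSL1 this made 3 of 4 and 1 of 3. Of 7 genes linked to MSL function 6 were measured, of which 2 were called there. Sirt2, a deacetylase, fell by 0.76 in arrays labelled NSL1 (adjusted p = 6.55e-07), and Rnf40, a histone H2B ubiquitin ligase, fell in 3 comparisons, by 0.23 in arrays labelled NSL1, by 0.14 after MOF siRNA in PGK12.1 and by 0.21 in WD44. Rnf20, the partner of Rnf40, fell after MOF siRNA in PGK12.1 (-0.18, adjusted p = 0.0246).

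Markers of other cells were counted beside these results. Of 7 tested MEF feeder markers, 4 rose after MOF siRNA in WD44, where 4.38% of all probesets were called higher and the list median was 0.305 against -0.02 for all probesets, led by Acta2 (0.97, limma adjusted p = 0.00171) and Col1a1 (0.38). Summed over all 10 MEF markers, the log2 levels ran from 82.7 to 83.4 on WD44 MOF arrays, against 80.7 to 81.5 on WD44 control arrays. On all arrays of PGK12.1 the sum ran from 59.71 to 66.38, and on those of E14 from 61.65 to 62.29. Array medians were also higher in WD44, so the sums of different lines are not on one scale. In E14 Acta2 alone of the 7 rose (0.55), where 3.6% were called higher. In PGK12.1 none of the 7 was called after MOF siRNA, MSL1 siRNA or in double-target cells. Of the 7, 1 rose and 2 fell in arrays labelled NSL1, where 18.4% of all probesets were called higher and 21.4% lower. Of 10 ES cell markers 3 fell after MOF siRNA in PGK12.1 (Utf1 by 0.25, Tdgf1 by 0.17 and Nanog by 0.14), 2 in arrays labelled NSL1 and 1 in E14, against 13.9%, 21.4% and 4.73% of all probesets called lower. Of 4 tested primitive endoderm markers Gata6 rose in arrays labelled NSL1 (0.37, adjusted p = 0.00149, against 18.4% of all probesets called higher), and none was called in the other 5 comparisons. Of 4 tested trophectoderm markers Krt18 rose in WD44 (0.45, against 4.38% of all probesets called higher). It fell in arrays labelled NSL1 (-0.25, against 21.4% called lower). The part of these cells in the changes of the 4 transcripts was not tested.

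The genes whose 15 differences from control followed each transcript most closely were found by Pearson correlation over 15283 probesets, as a description. The differences are not independent, since those of experiments C, D and E share control arrays. Kat8 was followed most closely by 2810004N23Rik (r = 0.924), Hlcs, the holocarboxylase synthetase (0.922), Ccdc136 (0.905), Papola, a poly(A) polymerase (0.886), and Fhl1 (0.884). Urgcp (-0.896), D230025D16Rik (-0.88) and Csf2rb2 (-0.851) ran opposite. These values rest on the MOF arrays, since over the 6 differences without MOF siRNA the same 8 genes lay between -0.267 and 0.503.

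Msl1 was followed by Atp2c1, a Golgi calcium pump (r = 0.91), Acsm4 (0.899), the ETS factor Elk4 (0.892), Asah1, the acid ceramidase (0.876), and the kinase Cdk19 (0.875). Ttll1 (-0.933), Plcd1 (-0.898) and Sgcb (-0.89) ran opposite. Without the 5 differences with MSL1 siRNA, Asah1 stood at 0.858 and Ttll1 at -0.801, whereas Acsm4 stood at 0.11.

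Msl2 was followed by Fbxw7, a substrate receptor of an SCF ubiquitin ligase (r = 0.957), Arhgap28 (0.949), Dzip1 (0.948), Nhsl1 (0.939) and Txnrd1, a thioredoxin reductase (0.936), with Dpm2 (-0.958), Scfd2 (-0.947) and Dhrs7b (-0.932) opposite. Msl3 was followed by the kinase Vrk2 (0.935), Pot1b, a telomere-binding protein (0.932), Gtf2f1, a subunit of the transcription factor TFIIF (0.92), and the peptidases Rnpep (0.914) and Mipep (0.911). Map3k20 (-0.953), Sgsm2 (-0.936) and Ptpn14 (-0.933) ran opposite to it. Msl2 and Msl3 were not siRNA targets, so no differences were left out for them. Both changed most in the arrays labelled NSL1, and how far these correlations rest on those arrays was not tested.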

How the data were processed

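The deposited values are log2 expression values per probeset that the authors made with RMA in Affymetrix Expression Console, per the submitters' processing notes, with versions and array build not given in the sources used here. RMA corrects background, sets arrays to one distribution and summarises probes. Of 35556 probesets 21789 had 1 gene symbol, 1621 several and 12146 none, and 21698 were matched to RefSeq for current symbols. The 16283 probesets with a mean of at least 6 and a symbol were fitted over all 27 arrays with limma 3.58.1 in R 4.3.3, with 6 knockdown terms and a block term for each experiment, which left 9 residual degrees of freedom, and p-values were adjusted by the Benjamini-Hochberg method over all of them. The pairing comes from the labels, which give each experiment its own control array. Deviations from the group means correlated between paired arrays at -0.0042 to 0.867. Some arrays correlated best with another control array of their comparison. They were the MOF array of PGK12.1 experiment 1, the MSL1 arrays of A and B and the array labelled NSL1 of E. Replicate arrays correlated at 0.981 to 0.996 and none were identical. The number of arrays limits the precision. The fit was tested on simulated data.

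The members and lists were chosen with earlier results of these data known. Named list genes are those called, at most 4 by smallest p in a comparison, on the probeset with the highest mean. Genes of like pattern are the 5 highest and 3 lowest correlations. Alternatives were no block, a random block, centring, quantile normalization, no filter, each comparison's own arrays and leaving out each array. The mean MOF response and the single-round experiments were added after the values were seen.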

Additional observations from a re-analysis of the deposited data

Results flagged for a closer look

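A pair of results stood out because the response to MOF siRNA differed between cell lines by a test of the difference itself. The fall of Kat8 was shallower in E14 than in PGK12.1 by 0.55 on the log2 scale (limma adjusted p = 0.0132), with -0.68 in E14 and -1.22 in PGK12.1. Both E14 and all 3 PGK12.1 experiments showed a fall. Msl3 was higher after MOF siRNA in E14, relative to its control, than in PGK12.1 by 0.43 (adjusted p = 0.029), with 0.16 in both E14 experiments and -0.08, -0.41 and -0.32 in the PGK12.1 experiments. The lines differ in sex and strain, and 2 of the 3 PGK12.1 experiments had a second round of RNAi, so that these cannot be told apart. Against the single-round experiment of PGK12.1, 1 pair of arrays, the values were 0.39 for Kat8 and 0.48 for Msl3, given without a test.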

How the results depend on the processing

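Of 268 alternative values for the 24 changes of the 4 transcripts, 259 left the call as it was, 8 lost a call and 1 gained one, and no called change turned its sign. These values are not all separate. In an experiment with 1 siRNA array, leaving out either array removes the pair, so the same fit was counted for each. The single-round fit is also counted, though a call from 1 pair of arrays is no test. Centring arrays on their medians called Msl1 after MOF siRNA in PGK12.1 (0.19, adjusted p = 0.0459). With each comparison's own arrays alone, limma no longer called Msl3 after MOF siRNA in PGK12.1 (-0.27), Msl1 after MSL1 siRNA (-0.97), or Kat8 in WD44 (-0.84) and E14 (-0.68), where fewer arrays estimate the spread. With 1 array left out, Msl3 after MOF siRNA in PGK12.1 ran from -0.365 to -0.20 and Msl1 in double-target cells from -0.486 to -0.433.

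Without the replicate block, no change of the 24 altered its call. Among differences between responses, the fit without the block lost Kat8 (0.55) and Msl3 (0.43) for E14 minus PGK12.1, Msl1 for double-target minus MOF (-0.56) and Msl1 for NSL1 minus MOF (0.32). Probesets called without the block were 1250 after MOF siRNA in PGK12.1 (3816 with it), 10 after MSL1 siRNA (30), 1612 in double-target cells (1048), 99 in WD44 (2013) and 109 in E14 (1357). A random block called 61 after MSL1 siRNA and 1780 in double-target cells. Without the filter the counts were 3, 255, 923 and 421 after MSL1 siRNA, in double-target cells, in WD44 and in E14. From own arrays alone limma called 1516 after MOF siRNA in PGK12.1 and 0 after MSL1 siRNA, in WD44 and in E14, where 2052, 3458 and 3224 had an unadjusted p under 0.05. A fit of the single-round experiments of all lines gave 1583 after MOF siRNA in PGK12.1. That comparison then has 1 pair of arrays, so its spread is taken from the other groups and the count is no test of that pair. With 1 array left out the counts ran from 2288 to 3361 after MOF siRNA in PGK12.1, 3 to 13 after MSL1 siRNA, 130 to 519 in double-target cells, 161 to 702 in WD44 and 55 to 325 in E14.

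Differences for WD44 minus PGK12.1 were called for Kat8 with a random block (0.38), centring (0.42) and quantile normalization (0.46), and for Msl3 with a random block (0.34) and quantile normalization (0.42). Quantile normalization also called Kat8 for double-target minus MOF (0.53) and Msl2 for NSL1 minus MOF (0.24, and 0.21 with a random block), and lost Msl1 for NSL1 minus MOF (0.23). Without the filter, with more probesets tested, the calls lost were Kat8 (0.55) and Msl3 (0.43) for E14 minus PGK12.1, Msl1 for double-target minus MOF (-0.61), double-target minus MSL1 (0.51) and NSL1 minus MOF (0.30), Msl2 for NSL1 minus double-target (0.24) and the mean Msl1 response to MOF siRNA (0.15, adjusted p = 0.0591). With single-round experiments alone, MOF siRNA in PGK12.1 has 1 pair of arrays, so the values are given without a test. For E14 minus PGK12.1 they were 0.39 (Kat8) and 0.48 (Msl3). For WD44 minus PGK12.1 they were 0.22 (Kat8) and 0.39 (Msl3), and for double-target minus MOF 0.19 (Kat8). For Msl1 they were -0.62 for double-target minus MOF, 0.29 for NSL1 minus MOF and 0.15 for the mean MOF response. The cause of the lost or gained calls was not tested.

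With 1 array left out, the differences ran from 0.463 to 0.633 (Kat8) and 0.36 to 0.525 (Msl3) for E14 minus PGK12.1, and from 0.273 to 0.493 (Kat8) and 0.27 to 0.435 (Msl3) for WD44 minus PGK12.1. Msl1 ran from -0.672 to -0.547 for double-target minus MOF, 0.367 to 0.568 for double-target minus MSL1, 0.238 to 0.367 for NSL1 minus MOF and 0.125 to 0.175 for the mean MOF response. Msl2 ran from 0.167 to 0.295 for NSL1 minus MOF and 0.177 to 0.277 for NSL1 minus double-target. Without the MOF arrays, correlations with Kat8 turned sign for 2810004N23Rik (-0.267), Papola (-0.195), Fhl1 (-0.00353) and Urgcp (0.474).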

Other observations

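The order of control levels across lines depended on the scale. Array medians differed between sets of arrays, and the reason for this was not tested. As deposited, Msl1 averaged 10.63 ± 0.01 in WD44 controls and 9.74 ± 0.08 in E14 controls (SD, n = 2 each). After subtraction of each array's median over tested probesets, it averaged 1.16 ± 0.04 in WD44 and 1.22 ± 0.11 in E14, so that the order turned and the ranges overlapped. On that scale Msl3 was lowest in WD44 controls (-0.37 and -0.34) and stood at 0.10 and 0.14 in E14 controls, while PGK12.1 controls ran from 0.07 to 0.27 beside the MOF arrays and from 0.48 to 0.67 beside the others. Msl2 stood at 2.24 on both WD44 control arrays and between 2.67 and 3.24 on the control arrays of the other lines. These levels were compared without a test.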
